A study of Mus musculus with 7 samples.

Results

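The genes described here are 9 mouse genes that make, break down or sense amines, or degrade histidine: Ddc, Maoa, Maob, Rnls, Aoc1, Hdc, Hnmt, Hal and Drd1, out of 45706 genes in the deposited tables. Coordinates are those of GENCODE M21 on GRCm38. The genes were taken by symbol from a named list that was selected on earlier results of the same treatment comparison, the fold changes of expression between treated and untreated kidneys. Their differences between the groups are therefore given as a description, without a test. The kidneys came from male Slc7a9-/- mice aged 6 months, a model of cystinuria in which a light chain of the renal cystine transporter is missing. Of the 7 mice, 4 received L-ergothioneine at 16 mg/kg/day in the drinking water and 3 were untreated. The untreated mice carried the Slc7a9-/- genotype too, and no wild-type kidney enters any comparison. The labels name no litter, cage or time of collection, so p-values measure only the spread between these samples.

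Dopamine in the kidney is made inside proximal tubule cells, which take up L-DOPA from the filtrate and decarboxylate it with the enzyme encoded by Ddc. Local dopamine acts on the D1 receptor and promotes sodium excretion, and monoamine oxidases are among the enzymes that remove it. Histamine is made from histidine by the Hdc product and is cleared by methylation inside cells (Hnmt) or by oxidation outside them (Aoc1). Histidine itself is degraded mainly in liver and skin, where the Hal product takes the first step to urocanate. Ergothioneine is a sulfur-containing derivative of histidine that fungi and some bacteria make and that mammals take up from food.

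The groups did not overlap for Ddc, the member that most of the results turn on, so the windows around its starts of transcription are shown. RefSeq (GRCm38.p6) lists a pair of starts for mouse Ddc, both on the minus strand. In rat and human the gene has alternative first exons, of which the distal one is used outside the nervous system and the proximal one in nerve cells. Each window runs from 250 bases before the start to 50 after it. Capitals mark matches to the motifs that were searched:
Ddc distal start, chr11:11898095-11898394: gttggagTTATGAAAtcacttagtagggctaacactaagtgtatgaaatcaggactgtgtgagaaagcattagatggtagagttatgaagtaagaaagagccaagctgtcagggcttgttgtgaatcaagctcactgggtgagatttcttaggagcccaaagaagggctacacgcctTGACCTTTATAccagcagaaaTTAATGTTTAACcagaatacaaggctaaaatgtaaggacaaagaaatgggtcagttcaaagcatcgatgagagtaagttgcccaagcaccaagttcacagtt
Ddc proximal start, chr11:11890359-11890658: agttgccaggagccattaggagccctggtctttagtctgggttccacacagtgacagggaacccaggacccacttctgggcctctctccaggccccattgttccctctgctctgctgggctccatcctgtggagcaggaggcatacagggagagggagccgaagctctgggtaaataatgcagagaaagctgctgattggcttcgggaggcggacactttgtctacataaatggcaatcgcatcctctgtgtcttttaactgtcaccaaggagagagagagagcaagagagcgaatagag
The letters were chosen with the sequences in view and searched on both strands: the E-box CACGTG, the D-box TTATGNAA, the nuclear receptor half-site AGGTCA, the antioxidant response element core TGACNNNGC, an HNF1 consensus of 12 letters, an HNF4 site as CAAAGNNCA, and the TATA box TATAAA. The distal window held a match to the D-box pattern, TTATGAAA, with A at the open letter N. It also held a half-site match and a TATA box match on the opposite strand, which overlap by 1 letter, and the HNF1 match. The proximal window held no match to these letters. The HNF1 consensus was searched in a loose form, in which some of the 12 letters were open and matched any base. Its share of windows is therefore that of the loose form, not of 12 fixed letters. The D-box was loose in the same way at its letter N. TTATGAAA thus matches that loose form and not necessarily a stricter D-box consensus. Of all 32851 windows of this length in the table, 3.38% held the D-box letters, 16.3% the half-site, 13.6% the TATA box and 0.377% the HNF1 letters. The E-box, the antioxidant response element core and the HNF4 letters stood in 7.15%, 12.4% and 6.36% of the windows. Windows were found for 7 of the 9 members, and beyond Ddc the matches were an HNF4 match at Hdc and a TATA box match at Hal. A match describes the letters and is no evidence of binding.

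The libraries held between 14843899 and 19791575 counts, and 15399 genes had enough counts to be tested. All 10 defining kidney markers, from Umod to Nphs1, passed the filter on low counts, each at a mean of at least 28.3 CPM (counts scaled to a common library size). In the fit over all genes 1102 genes differed between the groups at an adjusted p of 0.05 or less, 552 higher and 550 lower in ergothioneine-treated kidneys. Short non-coding RNA took 37.5% to 48.7% of the deposited TPM, the level per transcript length, in the 4 treated libraries and untreated library 3, but 12.2% and 16.2% in untreated libraries 1 and 2. Levels per length are therefore given below as TPM rescaled without those RNAs. The deposited TPM values place the median gene 0.31 log2 units lower in treated kidneys (fold change of -0.31 on log2(TPM + 1)).

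The 9 genes covered a wide range of levels. Ddc was the most abundant, with a mean rescaled TPM of 72.3 over the 7 libraries, at the median percentile 89.1 of tested genes. Hnmt followed at 22.5 rescaled TPM, and Maob, Maoa, Rnls and Aoc1 stood between 1.92 and 4.89. Hdc averaged 0.399, Drd1 0.0744 and Hal 0.0568 rescaled TPM. Each gene from Ddc down to Maoa exceeded the next in all 7 libraries. Rnls exceeded Aoc1 in 5 libraries and Drd1 exceeded Hal in 3, so the order within those neighbouring pairs is not set beyond their spread.

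**Figure D1:**
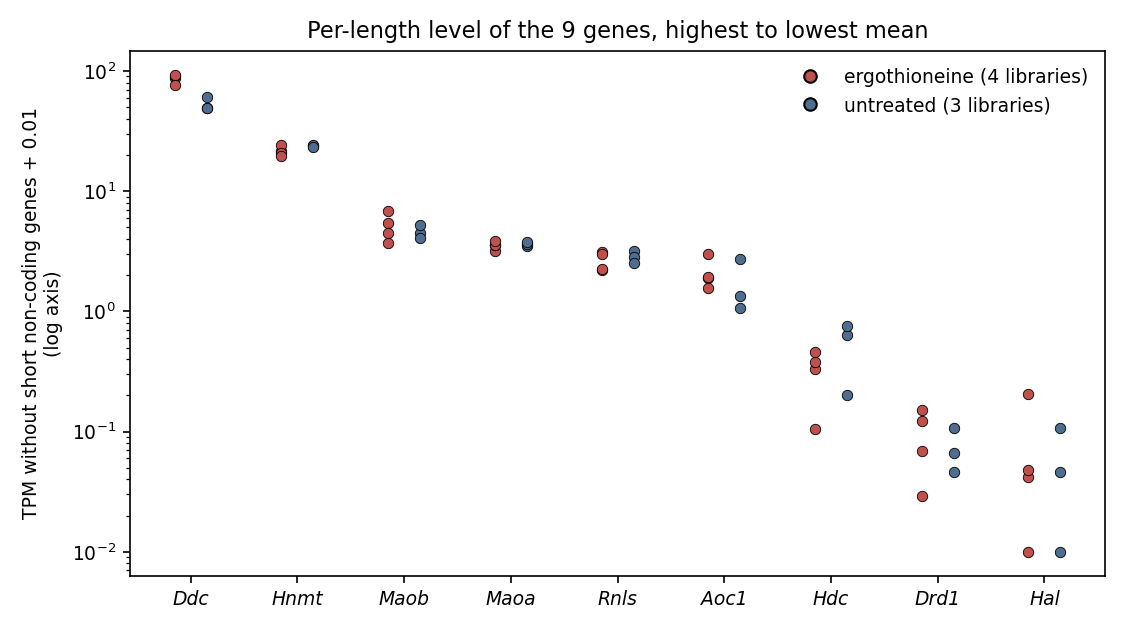
Per-length level of the 9 genes in each library, as TPM rescaled without short non-coding genes plus 0.01 on a log axis, with ergothioneine libraries in red on the left of each gene and untreated libraries in blue on the right. The means fall from 72.3 for Ddc to 0.0568 for Hal, and Ddc is the gene whose red and blue points do not overlap.

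Ddc (chr11:11814101-11898144, minus strand) encodes aromatic L-amino acid decarboxylase, which turns L-DOPA into dopamine and 5-hydroxytryptophan into serotonin. It had 93.4, 90.5, 91.3 and 75.8 CPM in the 4 ergothioneine-treated kidneys, against 49.9, 49.0 and 55.3 CPM in the 3 untreated ones. All treated kidneys lay above all untreated ones. The means were 87.7 ± 8.06 CPM treated (SD, n = 4) and 51.4 ± 3.44 CPM untreated (SD, n = 3), a log2 fold change of 0.77 ± 0.08 (SE), or 1.71-fold. The counts behind these values were 1390 to 1789 in treated and 731 to 880 in untreated libraries. Per length, Ddc stood at 86.6 ± 7.49 rescaled TPM treated and 53.2 ± 6.95 rescaled TPM untreated. In the deposited TPM the groups overlapped, with 54.2, 47.4, 52.8 and 39.2 in treated libraries against 43.0, 41.4 and 31.4 in untreated ones. In a bulk kidney sample, more RNA per cell and more cells of a type cannot be told apart.

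Of the 9 members 7 passed the filter on low counts, and Ddc was the one that the fit over all genes called, as higher; 7.16% of all tested genes were called in either direction, 3.58% as higher and 3.57% as lower. The groups did not overlap in CPM for 1 of the 7, Ddc, and for 18.6% of all tested genes. Since the comparison was known when the genes were chosen, nothing is read from these counts. The log2 fold changes of the 7 had a median of -0.06, beside -0.00 over all tested genes.

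Ddc was higher in treated kidneys within both ranges of library index numbers, the numbers in the labels' library names. As all treated kidneys lay above all untreated ones, any split of the libraries gives this direction, so nothing is read from it. In each range 1 of the groups is a single library, so its spread within that range is not known. In the upper range treated library 1 held 93.4 CPM, against 49.9 and 49.0 CPM in untreated libraries 1 and 2. In the lower range treated libraries 2, 3 and 4 held 90.5, 91.3 and 75.8 CPM, against 55.3 CPM in untreated library 3. Its log2 fold change was 0.77 with the index range as a term in the fit and 0.67 without untreated libraries 1 and 2, where the lone untreated library is assumed to vary like the treated ones.

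Marker lists of the tubule segments were read from the same fit, in which 7.16% of all tested genes were called. Of 8 markers of the first proximal tubule segments, S1 and S2, 1 was called, as lower, and their summed level was 16466 to 18241 CPM in treated and 16717 to 20207 CPM in untreated kidneys, which overlap. Of 6 markers of the last segment, S3, 2 were called lower, and their sum was 2675 to 2825 CPM treated against 3574 to 3688 CPM untreated. Most of that sum came from the 2 called genes, Atp11a and Slc7a13 (means of 2026 and 752 CPM over the 7 libraries), and the median log2 fold change of the 6 was 0.02. Of 5 intercalated cell markers 4 were called higher, with a sum of 184 to 210 CPM treated and 150 to 151 CPM untreated. Of the thick ascending limb markers 1 of 5 was called higher. Among the 4 distal convoluted tubule and 5 principal cell markers the smallest edgeR adjusted p was 0.0552, that of Calb1. The distal convoluted tubule sum was 1338 to 1557 CPM treated and 1106 to 1210 CPM untreated, and the principal cell sum 282 to 340 CPM treated and 261 to 289 CPM untreated. In the distal convoluted tubule list Calb1 averaged 508 CPM treated and 280 CPM untreated. The means of Slc12a3 were 882 and 844 CPM, of Trpm6 40.8 and 36.0 CPM and of Pvalb 7.41 and 6.46 CPM. Of 16 clock genes 3 were called higher and 11 lower, and their sum was 913 to 1022 CPM treated and 1531 to 1747 CPM untreated. Arntl averaged 11.6 CPM treated and 1.63 CPM untreated, and Per2 17.1 and 83.8 CPM. Nr1d1, which was not called, averaged 97.8 and 120 CPM. Whether any of these has a part in the Ddc values was not tested.

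**Figure D2:**
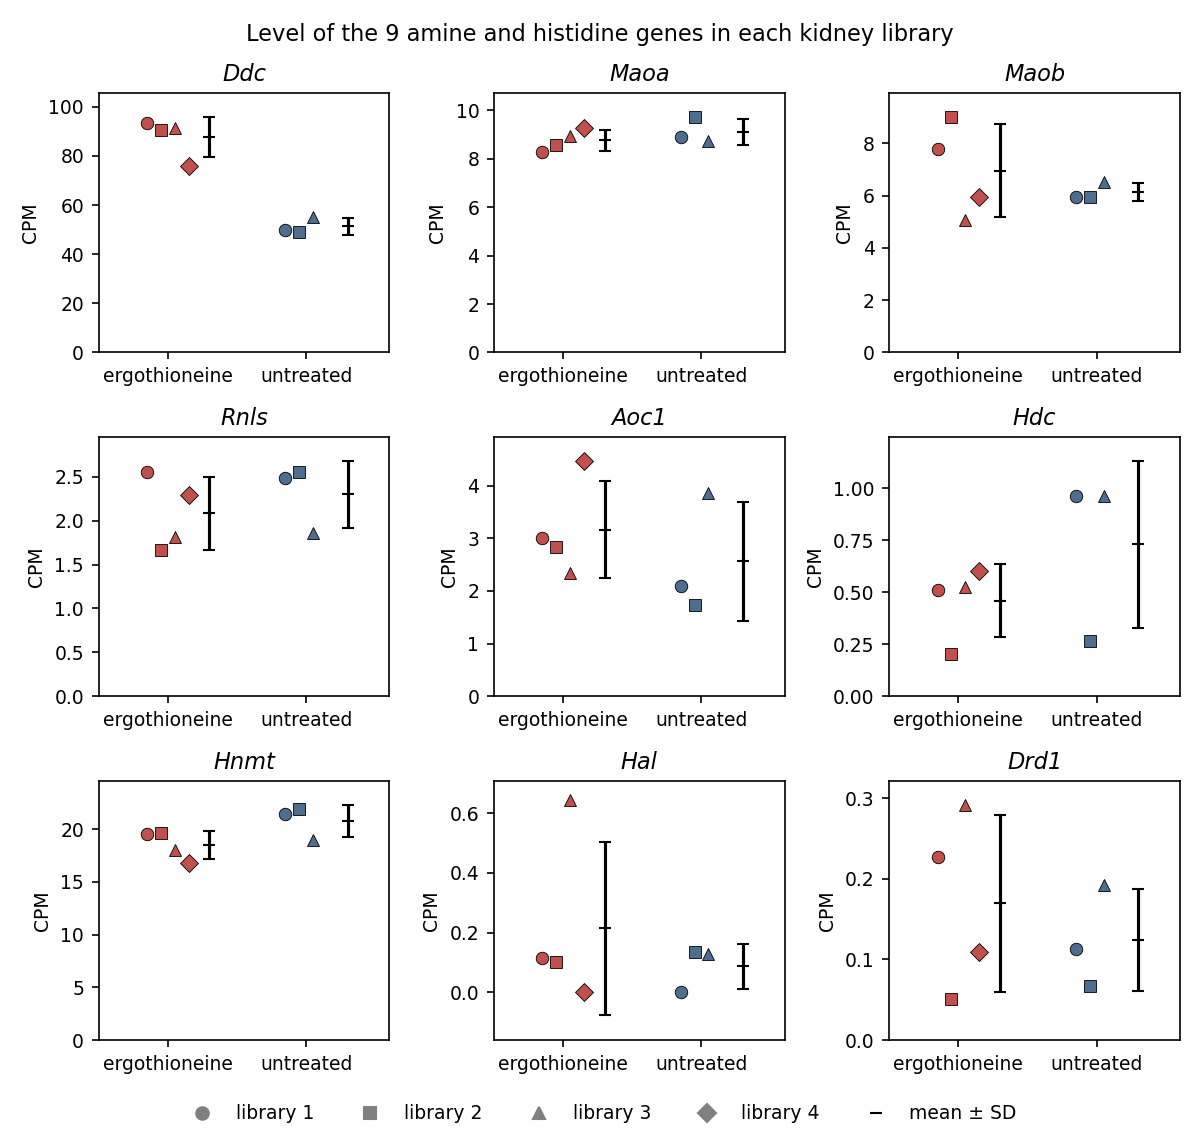
CPM of each of the 9 genes in the 4 ergothioneine-treated libraries (red, left) and the 3 untreated libraries (blue, right), with marker shapes for library numbers and mean ± SD beside the points. Ddc separates the groups, with 75.8 CPM or more in treated and 55.3 CPM or less in untreated kidneys, and the other 8 genes overlap.

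Among the members, the genes of enzymes that oxidise amines showed overlapping groups. Maoa (chrX:16619698-16687818, plus strand) encodes monoamine oxidase A, a mitochondrial enzyme that prefers serotonin and noradrenaline. It had 8.29, 8.55, 8.94 and 9.27 CPM in treated kidneys, against 8.90, 9.72 and 8.72 CPM in untreated ones. These 7 values were the most even of the tested members, with a within-group SD of 0.07 log2 units, and the log2 fold change was -0.06 ± 0.11 (SE).

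Maob (chrX:16709282-16817366, minus strand) encodes monoamine oxidase B, the related enzyme that prefers phenylethylamine, and lies 21463 bases from Maoa with the gene ends facing each other. It had 7.78, 9.01, 5.08 and 5.94 CPM in treated kidneys, against 5.95, 5.96 and 6.54 CPM in untreated ones. The treated kidneys spread to both sides of the untreated ones, and the log2 fold change was 0.18 ± 0.18 (SE). The ratio of Maob to Maoa TPM within a library, which does not depend on library scale, was 1.03 to 1.93 in treated and 1.12 to 1.37 in untreated kidneys. Maob was the higher of the pair per length in all 7 libraries.

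Rnls (chr19:33137747-33392295, minus strand) encodes renalase, a flavoprotein released by the kidney that was first described as an amine oxidase in blood. It had 2.56, 1.67, 1.81 and 2.29 CPM in treated kidneys, against 2.49, 2.55 and 1.86 CPM in untreated ones. The groups overlapped across nearly their whole range, with 29 to 45 counts per library and a log2 fold change of -0.15 ± 0.24 (SE).

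Ddc was also set against both monoamine oxidases within each library. The ratio of Ddc to Maoa TPM was 27.4, 25.3, 26.1 and 20.0 in treated and 14.2, 13.6 and 16.2 in untreated kidneys. The ratio of Ddc to Maob TPM was 13.2 to 25.2 in treated and 10.9 to 12.1 in untreated kidneys. Neither ratio overlapped between the groups, and both share the Ddc values described above.

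Among the histamine genes, Hdc (chr2:126593667-126619299, minus strand) encodes histidine decarboxylase, which makes histamine. It was barely detected, with 9, 4, 9 and 11 counts in treated and 17, 4 and 15 counts in untreated libraries. These counts equalled 0.460 ± 0.176 CPM treated (SD, n = 4) and 0.731 ± 0.401 CPM untreated (SD, n = 3). Untreated library 2 fell among the treated ones, and the log2 fold change was -0.69 ± 0.48 (SE). Of 8 mast cell markers 4 were listed at 0 in every library (Tpsb2, Cma1, Tpsab1 and Fcer1a), Cpa3 and Mcpt4 had at most 1 count, and Ms4a2 had 4 to 7. The summed level of that list was 26.0 to 29.5 CPM treated and 22.5 to 25.4 CPM untreated, nearly all of it from Kit (mean of 25.7 CPM), which other kidney cells also express.

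Hnmt (chr2:24002910-24049394, minus strand) encodes histamine N-methyltransferase, the cytosolic enzyme that inactivates histamine. It had 19.5, 19.6, 18.0 and 16.8 CPM in treated kidneys, against 21.4, 21.9 and 19.0 CPM in untreated ones. Untreated library 3 fell within the treated range, and the log2 fold change was -0.17 ± 0.09 (SE).

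Aoc1 (chr6:48872896-48909188, plus strand) encodes diamine oxidase, the secreted copper enzyme that oxidises histamine and putrescine. It had 3.01, 2.83, 2.34 and 4.47 CPM in treated kidneys, against 2.10, 1.74 and 3.85 CPM in untreated ones. Each group held a high library, treated 4 and untreated 3, and the within-group SD of 0.47 log2 units exceeded the log2 fold change of 0.31 ± 0.28 (SE). Without untreated library 3 the log2 fold change was 0.71, and without untreated libraries 1 and 2 it was -0.28, so its direction depended on which untreated libraries were used. Per length, both histamine clearance genes stood above the gene of histamine synthesis in all 7 libraries, with mean rescaled TPM of 22.5 for Hnmt and 1.92 for Aoc1 beside 0.399 for Hdc.

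Both remaining members were at the limit of detection and were not tested. Hal (chr10:93488768-93519304, plus strand), the histidine ammonia-lyase gene, had 2, 2, 11 and 0 counts in treated and 0, 2 and 2 counts in untreated libraries. Treated library 3 was the one above a floor of 3 counts per library. Drd1 (chr13:54051183-54055705, minus strand), the gene of the D1 dopamine receptor, had 4, 1, 5 and 2 counts in treated and 2, 1 and 3 counts in untreated libraries. It stood above the floor in 2 libraries, both treated. A difference between the groups in either gene was not detectable at this depth.

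The other genes of these pathways were read from 6 lists that leave out the 9 members. Of 72 listed genes 51 were tested, of which 3 were called higher, 3 lower and 45 did not pass. On the deposited TPM, where the median of all genes is shifted down, the split was 0 higher and 7 lower with either pseudocount. The edgeR calls are 11.8% of the 51, beside 7.16% of all tested genes, with a median log2 fold change of -0.04 beside -0.00.

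In catecholamine synthesis and its cofactor tetrahydrobiopterin 0 of 8 tested genes passed by edgeR. At an unadjusted p under 0.05 there were 4 (Gchfr, Spr, Pcbd1 and Pcbd2), and DESeq2 and limma-voom each called 0. The share of all tested genes at that unadjusted cut was not computed, so nothing is read from the 4. Pcbd1, which recycles the cofactor, stood at 151 ± 4.01 CPM treated and 135 ± 2.83 CPM untreated (SD, n = 4 and 3). Its log2 fold change of 0.16 ± 0.05 (SE) missed the threshold (edgeR adjusted p = 0.0721). Qdpr, the dihydropteridine reductase gene, had a log2 fold change of 0.07 ± 0.06 (SE). Th, Dbh and Pnmt, which encode the enzymes that make L-DOPA, noradrenaline and adrenaline in nerve and adrenal cells, were listed at 0 in all 7 libraries. Snap25, a nerve terminal marker, and Chga and Chgb of the adrenal medulla were at 0 too. Other markers of the nerve list were detected, with 30 to 68 counts per library for Uchl1, 10 to 36 for Npy and 3 to 9 for Stmn2. Of the adrenal list Star had 6 to 37 counts, and Cyp11a1 and Cyp11b1 had at most 1.

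In amine and aldehyde breakdown 2 of 12 tested genes rose, 1 fell and 9 did not pass, with a median log2 fold change of -0.09. Akr1a1, which encodes an aldehyde reductase, had 1088, 1169, 1245 and 1178 CPM in treated kidneys, against 989, 975 and 1014 CPM in untreated ones. It rose by 0.24 ± 0.07 (log2, SE, edgeR adjusted p = 0.0384). Its log2 fold change was -0.14 on the deposited TPM (log2(TPM + 1)), where the median of all genes was -0.31. On rescaled TPM it was 0.24 and did not pass (limma adjusted p = 0.249). The call was lost when any 1 of the 7 libraries was left out (edgeR adjusted p of 0.0521 to 0.102) and with the library index range as a term (0.144). Aldh9a1, whose product oxidises amino-aldehydes on the way to GABA and carnitine, fell to 429, 423, 435 and 400 CPM in treated kidneys, against 598, 466 and 502 CPM in untreated ones. Its log2 fold change was -0.31 ± 0.07 (SE, edgeR adjusted p = 0.0178). Without untreated library 1 this value was -0.20 (adjusted p = 0.114), and the call was also lost without treated library 1 or 2 (adjusted p = 0.0518 and 0.0546) and with the library index range as a term (0.0617).

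Inmt, the indolethylamine methyltransferase gene, had 304, 288, 415 and 159 CPM in treated kidneys, against 489, 529 and 622 CPM in untreated ones. The groups did not overlap, but treated kidneys spread widely, and the log2 fold change of -0.91 ± 0.33 (SE) did not pass by edgeR (adjusted p = 0.205). It passed in 5 of 19 alternatives, among them DESeq2 (adjusted p = 0.0492), limma-voom (0.0238) and the deposited TPM (-1.36, adjusted p = 2.55e-07). On rescaled TPM the log2 fold change of Inmt was -0.98 and did not pass (limma adjusted p = 0.193). Aldh2, the main mitochondrial aldehyde dehydrogenase, had a log2 fold change of -0.08 ± 0.08 (SE).

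Of 7 tested amine transporters 0 passed by edgeR, and DESeq2 and limma-voom each called 0. By edgeR 1 had an unadjusted p under 0.05, again without a share of all tested genes beside it. The organic cation transporter gene Slc22a2 averaged 255 ± 8.52 CPM in treated kidneys (SD, n = 4) and 291 ± 25.0 CPM in untreated ones (SD, n = 3). Slc47a1, which encodes an extruder of organic cations into the urine, averaged 606 ± 12.0 CPM treated and 611 ± 31.8 CPM untreated (SD, n = 4 and 3). Slc22a2 had the smallest adjusted p of the list (log2 fold change -0.19 ± 0.06 (SE), edgeR adjusted p = 0.0820), and passed when untreated library 2 was left out (0.0137). The neuronal carriers Slc18a2, Slc6a2 and Slc6a3 had at most 8 counts in a library.

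Among 20 listed amine receptors 11 were tested, of which 1 rose, 1 fell and 9 did not pass. The other dopamine receptor genes Drd2, Drd3, Drd4 and Drd5 had at most 3 counts in a library. Adra1a, an alpha-1 adrenergic receptor gene, had 34.3, 35.4, 26.8 and 32.2 CPM in treated kidneys, against 25.4, 20.1 and 24.9 CPM in untreated ones. It rose by 0.45 ± 0.10 (log2, SE; edgeR adjusted p = 0.0140), and the call was lost without treated library 1 or 2 or untreated library 2 (0.0523, 0.0509 and 0.0550). On the deposited TPM its log2 fold change was 0.10 (limma adjusted p = 0.677), and on rescaled TPM 0.46 (limma adjusted p = 0.158).

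Adrb3, the beta-3 adrenergic receptor gene known from brown and white fat, had 2, 4, 7 and 0 counts in treated and 14, 13 and 20 counts in untreated libraries. It fell, with a log2 fold change of -2.41 ± 0.56 (SE, edgeR adjusted p = 0.0139), and missed the threshold without untreated library 3 (0.0709). DESeq2 gave Adrb3 no adjusted p, and the alternative filter of at least 1 CPM in 3 libraries removed it. Of 7 tested adipocyte and brown fat markers 6 were lower too, and the sum of the 8 listed was 12.7 to 21.7 CPM in treated and 53.3 to 65.7 CPM in untreated kidneys. The part of fat tissue in the Adrb3 difference was not tested. Adra2b, the most abundant receptor of the list, averaged 179 ± 20.4 CPM treated (SD, n = 4) and 195 ± 16.0 CPM untreated (SD, n = 3). It did not pass the test (edgeR adjusted p = 0.465).

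For histidine and its dipeptides 0 of 12 tested genes rose, 1 fell and 11 did not pass. Cndp1, which encodes the carnosinase that splits carnosine into histidine and beta-alanine, fell to 86.9, 91.7, 73.9 and 73.7 CPM in treated kidneys, against 113, 114 and 131 CPM in untreated ones. Its log2 fold change was -0.55 ± 0.08 (SE, edgeR adjusted p = 0.00125), and it was called in all 19 alternative fits with an adjusted p of at most 0.0498. Those fits use the same libraries, and the lists were chosen with earlier results known, so their number is a description. The related and more abundant cytosolic dipeptidase Cndp2 averaged 691 ± 156 CPM treated (SD, n = 4) and 749 ± 24.6 CPM untreated (SD, n = 3). Its log2 fold change was -0.12 ± 0.18 (SE). Uroc1, which encodes the urocanate hydratase of the step after Hal, averaged 98.5 ± 18.3 CPM treated and 89.3 ± 6.00 CPM untreated (SD, n = 4 and 3). It did not pass the test (edgeR adjusted p = 0.686). Uroc1 had 1230 to 2281 counts per library, where Hal, the gene of the first step, had at most 11.

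Of the 4 decarboxylases related to Ddc and Hdc, Csad, which makes the taurine precursor hypotaurine, was the one tested. It averaged 167 ± 10.2 CPM treated (SD, n = 4) and 164 ± 6.05 CPM untreated (SD, n = 3), with a log2 fold change of 0.03 ± 0.06 (SE, edgeR adjusted p = 0.865). Gad1 and Gad2, which make GABA, had at most 12 and 3 counts in a library, and Gadl1 was listed at 0. The abundant decarboxylase genes Ddc and Csad thus had log2 fold changes of 0.77 and 0.03.

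**Figure D3:**
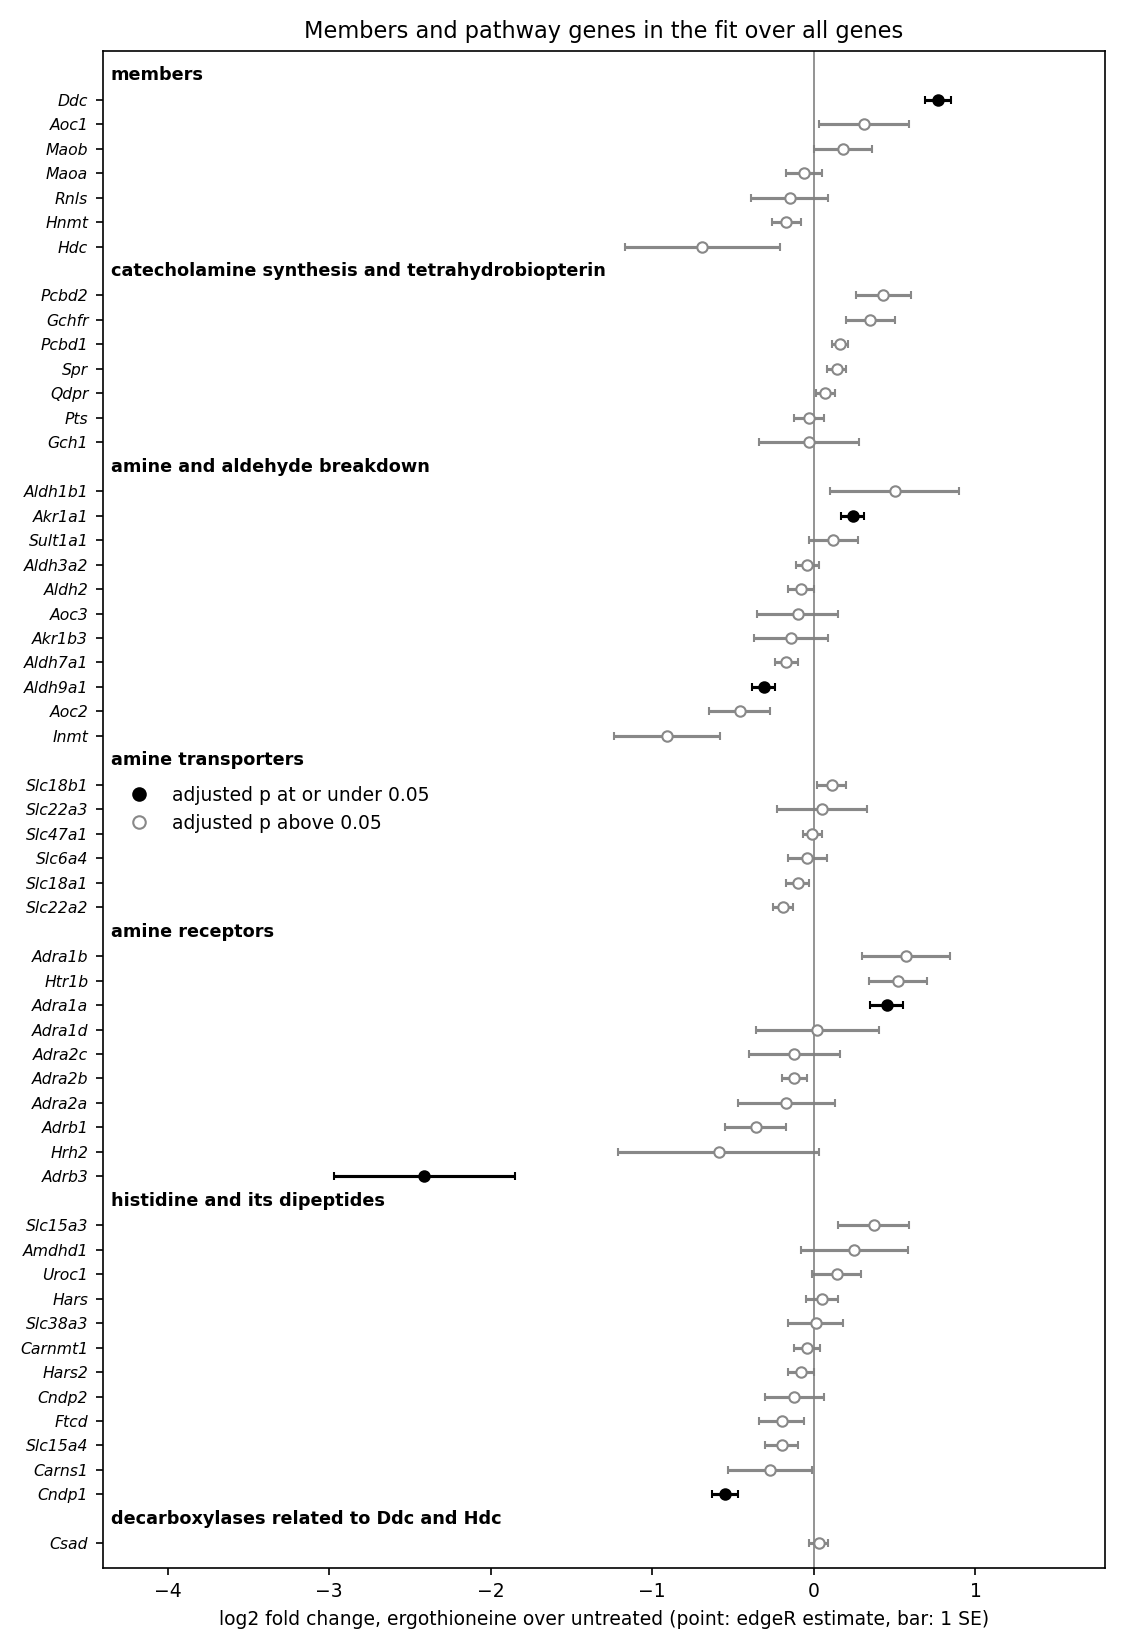
Log2 fold change of ergothioneine over untreated kidneys for the 7 tested members and 47 of the tested pathway genes, with bars of 1 SE and filled points for an adjusted p at or under 0.05 in the edgeR fit over all genes. The filled points on the right are Ddc, Akr1a1 (-0.14 on the deposited TPM, 0.24 on rescaled TPM) and Adra1a. Those on the left are Aldh9a1, Adrb3 and Cndp1. The members were chosen with this comparison known, so the filled point of Ddc is a description and no test.

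The genes whose log2 CPM ran most like that of a member were sought among 12767 genes, by Pearson's r over the 7 libraries. For Ddc they were Fam20c (r = 0.998) and Bid (r = 0.994), with log2 fold changes of 0.31 and 0.33, and 270 genes had an r of at least 0.9. For Maoa they were Igsf10 and Them4 (both 0.978), for Maob Asph (0.968) and Efcab12 (0.962), and for Rnls Nlrc4 (0.976) and Ccdc181 (0.971). For Hnmt they were Tmem231 (0.987) and Oard1 (0.984), and for Aoc1 Atg9a (0.979) and Ppip5k1 (0.976). Each of these 5 members had between 21 and 57 genes at an r of at least 0.9. The libraries share depth and group, and with 7 points and 12767 genes high values of r arise easily, so these names are a description.

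The Ddc values depended on the unit. Its log2 fold change ran from 0.67 to 0.84 over the alternatives on counts, and was 0.32 and 0.33 on the deposited TPM with pseudocounts of 1 and 0.1, where the fit did not call it. On rescaled TPM it was 0.70.

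**Figure D4:**
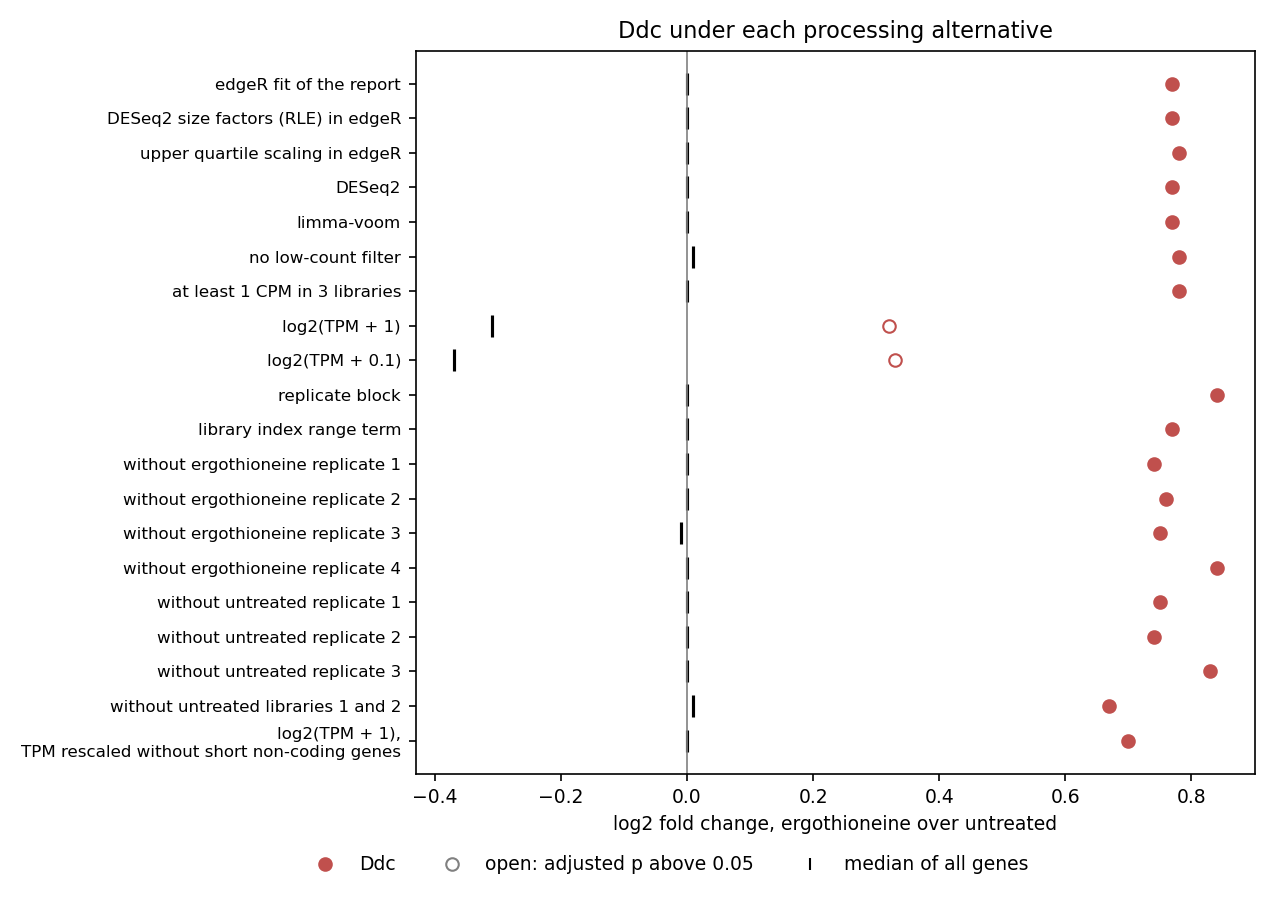
Log2 fold change of Ddc (red circles) under each processing alternative, with open symbols where the adjusted p was above 0.05 and a black bar for the median of all genes. In the fits on deposited TPM, where the median of all genes is -0.31 and -0.37, Ddc stands at 0.32 and 0.33. Ddc was chosen with this comparison known, so filled and open symbols are a description and no test.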

How the data were processed

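RNA from whole kidneys of 7 mice was sequenced. The authors deposited expected counts and TPM per gene, per the file headers, and the submitters' processing notes name STAR 2.7.10a, RSEM 1.3.1 and Salmon 1.10.1 without their roles. Of the count values 3.61% were not whole, and all were rounded. Genes were filtered with filterByExpr, scaled by TMM and tested with edgeR 4.0.16 (robust quasi-likelihood, Benjamini-Hochberg over 15399 genes, threshold 0.05) in R 4.3.3. SE is the fold change over the root of F. Gene names and biotypes came from GENCODE M21, which held 45143 of the 45706 IDs. Rescaled TPM leaves out non-coding genes with a median transcript under 400 nt.

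Alternatives used DESeq2 1.42.0 and limma 3.58.1, other scalings and filters, log2(TPM + 1) and log2(TPM + 0.1), the replicate number as a block, the library index range and each library left out. The fit without untreated libraries 1 and 2 and the one on rescaled TPM were chosen after seeing the data. The scripts were tested on simulated data.

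The members and lists were chosen with earlier results of these data known. Pathway genes are named if they passed the threshold or were among the 3 highest of their list by TPM. Of the genes this rule takes, 4 are not reported here, but they are counted in the lists. Genes at or near 0, and those named for an unadjusted p, were chosen after their values were seen. The genes most like a member are the 2 with the highest r. A floor of 3 counts per library covers counting error only.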

Additional observations from a re-analysis of the deposited data

Results flagged for a closer look

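Ddc in ergothioneine-treated library 4, at 75.8 CPM, lay apart from the other treated libraries, of which the nearest held 90.5 and the farthest 93.4 CPM. The gap made up 0.836 of the group's range, just above Dixon's critical value for 4 samples. Of 28 genes examined this way 1 stood out, and chance gives about 1 in 20. Without that library the log2 fold change of Ddc was 0.84, against 0.77 with it.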

How the results depend on the processing

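The fit over all genes called 1102 genes (552 higher, 550 lower), and 692 to 1103 when 1 library was left out. It called 556 without untreated libraries 1 and 2, which leaves 1 untreated library, and 280 on rescaled TPM. On deposited TPM the split of calls was 54 higher and 1484 lower (pseudocount 1) and 53 higher and 1424 lower (0.1). The log2 fold change of Ddc ran from 0.32 to 0.84 over the 19 alternatives. They refit the same libraries, whose comparison was known when Ddc was chosen, so this range is a description. On the deposited TPM 0 of the 7 tested members were called by limma with either pseudocount, where 1 and 2 had an unadjusted p under 0.05, against 1 by edgeR and by DESeq2. No share of all tested genes at the unadjusted cut was computed, so nothing is read from the unadjusted counts. Among the other pathway genes 6 were called, 3 to 5 with 1 library left out, 2 without untreated libraries 1 and 2, and 3 on rescaled TPM. The log2 fold change of Akr1a1 was -0.14 on deposited TPM with either pseudocount, where the median of all genes was -0.31 and -0.37. On rescaled TPM that of Akr1a1 was 0.24. The same replicate numbers did not pair the samples, since their deviations correlated at 0.03, -0.07 and 0.00. With the replicate block 809 genes were called, 1 of them a member and 4 of them pathway genes. In that fit Akr1a1, Aldh9a1 and Adra1a missed the threshold (edgeR adjusted p = 0.135, 0.0648 and 0.0559) and Inmt passed it (7.71e-05). Depth limits Hal, Drd1 and Hdc, which had at most 17 counts in a library.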
